A study of Mus musculus with 6 samples.

Results

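The 10 genes described here encode the receptor for granulocyte-macrophage colony-stimulating factor (GM-CSF), the kinase and transcription factors that carry its signal, and 4 genes that this signal is known to switch on. They are Csf2ra, Csf2rb, Csf2rb2, Jak2, Stat5a, Stat5b, Cish, Socs2, Pim1 and Pim3. They were chosen by gene symbol, and all 10 were found in the annotated expression table of 16111 genes, with 1 row each. Their levels were compared between cultured mouse fetal liver macrophages of the wild-type genotype and of a genotype deficient in Ahrr (the aryl hydrocarbon receptor repressor), with 3 libraries per genotype.

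GM-CSF binds an alpha chain, encoded by Csf2ra, which pairs with a common beta chain, encoded by Csf2rb and shared with the receptors for interleukin-3 and interleukin-5. The beta chain carries the kinase JAK2, which activates the transcription factors STAT5A and STAT5B once the ligand has bound. STAT5 then raises genes of feedback inhibitors such as Cish and Socs2 and genes of growth and survival kinases such as Pim1. In macrophages, GM-CSF is best known for the maturation and upkeep of the macrophages of the lung alveoli.

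Both groups were of the strain labelled C57BL/6 RCC, came from fetuses at stage E13.5 and were kept for 5 weeks in medium with 2% GM-CSF, so the ligand of this pathway was supplied to every culture. The wild-type group is labelled WT, and the deficient group is labelled Ahrr, and AhRR-/- in the protocol; the labels do not describe the allele. Only non-adherent cells were harvested, and the labels number the mice 1 to 3 within each genotype. Fewer cells of a type and less RNA per cell cannot be told apart in such bulk samples.

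Library totals ranged from 3556106 counts in Ahrr-deficient replicate 1 to 41668336 in Ahrr-deficient replicate 2, and levels are given as counts per 1000000 counts of a library (CPM). Fold changes come from a fit that also scales each library by a TMM factor (0.904 to 1.04). They can therefore differ from the ratio of mean CPM, in size and, where small, in sign. A ribosomal RNA gene took 5.28% of the counts of wild-type replicate 2 and at most 0.0679% in the other libraries. Ahrr itself was at 4.60, 4.29 and 5.32 CPM in wild-type replicates 1 to 3, against 2.25, 2.57 and 1.21 CPM in the Ahrr-deficient ones, so it was lower in each library of the deficient group without being at 0, with a log2 fold change of -1.21 and an adjusted p of 0.0151 by the quasi-likelihood test of edgeR. That call was lost without wild-type replicate 1 (edgeR adjusted p 0.0631) or wild-type replicate 3 (0.0502). All 12 listed macrophage markers were in the annotated table, with a summed level of 23220 to 28760 CPM in wild-type and 17430 to 24830 CPM in Ahrr-deficient libraries. Of the lists for other cells, the 8 mast cell and basophil, 4 eosinophil, 4 fibroblast and 4 lymphocyte markers had 0 genes in the table. The 3 of 9 neutrophil markers found summed to at most 2.698 CPM, and the erythroid and hepatocyte lists, with 1 of 5 genes each, to at most 0.420 and 0.864 CPM. The dendritic cell list, with 3 of 5 genes, summed to 57.6 to 62.1 CPM in wild-type and 72.0 to 93.2 CPM in Ahrr-deficient libraries, most of it from Clec9a.

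Of the 10 genes, 4 passed the threshold of an edgeR adjusted p under 0.05. Cish, Socs2 and Pim1 were higher in Ahrr-deficient macrophages and Pim3 was lower. All 4 belong to the targets, and none of the 6 genes of the receptor, its kinase and the STAT5 pair passed. Of all 11408 tested genes, 19.6% passed, 9.62% higher and 9.95% lower, so 4 of 10 stands beside a background of about 2 in 10. The 10 genes were chosen with earlier results of these data known, so their share is a description only. The groups did not overlap in CPM for the same 4 genes, against 36.6% of all tested genes. The log2 fold changes had a median of -0.02 over the 10 genes and 0.01 over all tested genes. Leaving out single libraries moved the number of genes called in the whole table to 694, 965 and 1107 (without wild-type replicates 1, 2 and 3) and to 3857, 948 and 1175 (without Ahrr-deficient replicates 1, 2 and 3). Of the 10 genes, 4 were also called without both wild-type replicate 2 and Ahrr-deficient replicate 1, which are the library with the ribosomal RNA and the shallowest library.

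**Figure D1:**
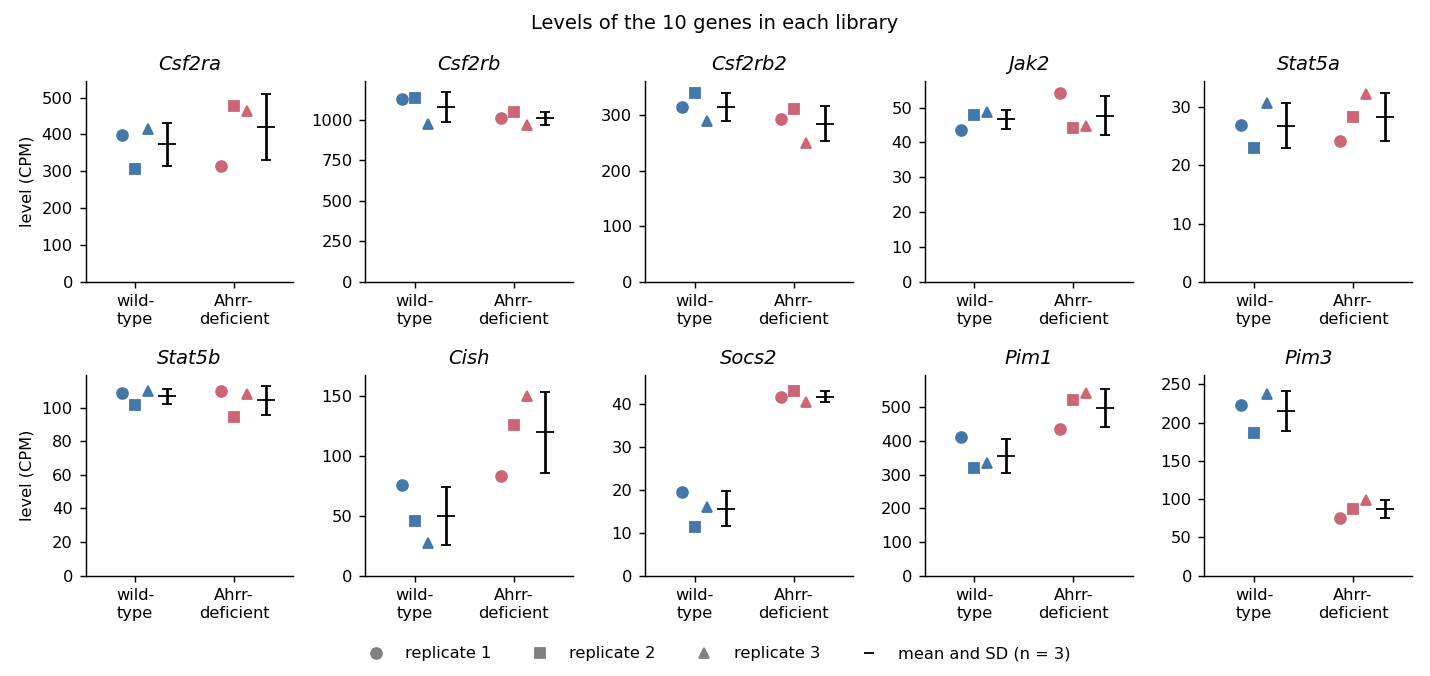
Levels of the 10 genes in CPM (vertical axis, from 0) in the 3 wild-type and 3 Ahrr-deficient libraries, 1 point per library, with mean and SD (n = 3) beside them. The groups are separate for Cish, Socs2, Pim1 and Pim3, with Socs2 at 11.3 to 19.4 CPM in wild-type and 40.5 to 43.0 CPM in Ahrr-deficient libraries, and they overlap for the 6 other genes.

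Sequence before the start site was available from RefSeq (GRCm38.p6) for 8 of the 10 genes; Csf2rb and Socs2 had no entry. The windows ran from 250 bases before to 50 bases after each start in RefSeq, which can differ from the gene ends given with the values. All coordinates are on GRCm38. They were searched for TTCNNNGAA, the palindromic letters that STAT5 is known to bind, and on both strands for TNGCGTG, the letters known to be bound by the aryl hydrocarbon receptor with its partner. The motifs do not overlap each other in the stretches shown. Cish held 2 matches to TTCNNNGAA, beginning at bases 1 and 12 from the start, and Csf2rb2 held 1, beginning 15 bases before its start. Over all 32851 windows of the same length, 8.3% held at least 1 match and 0.457% at least 2. TNGCGTG matched in Jak2, 61 bases before the start, and in 5.07% of all windows. The stretches are printed 5′ to 3′ on the strand of the gene, with matches to either motif in capitals, to set the genes with a match beside Pim1 and Pim3, whose windows held neither.
Cish (chr9:107296589-107296678, plus strand, 70 bases before the start and 20 after): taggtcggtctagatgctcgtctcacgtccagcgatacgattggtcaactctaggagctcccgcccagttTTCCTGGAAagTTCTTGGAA
Csf2rb2 (chr15:78305722-78305791, minus strand, 70 bases before the start): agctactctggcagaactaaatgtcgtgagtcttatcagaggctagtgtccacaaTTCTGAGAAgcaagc
Jak2 (chr19:29251733-29251802, plus strand, 70 bases before the start): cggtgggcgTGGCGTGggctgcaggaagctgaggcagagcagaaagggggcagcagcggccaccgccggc
Pim1 (chr17:29490715-29490784, plus strand, 70 bases before the start): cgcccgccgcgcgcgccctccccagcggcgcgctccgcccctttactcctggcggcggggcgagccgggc
Pim3 (chr15:88862124-88862193, plus strand, 70 bases before the start): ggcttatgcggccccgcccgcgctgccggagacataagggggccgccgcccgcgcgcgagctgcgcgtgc
A match is a description of letters, and its absence says only that these letters are not in this window. Cish, with 2 matches to TTCNNNGAA, rose, and Csf2rb2, with 1, did not pass the threshold. Pim1 rose and Pim3 fell, with no match in the windows of either.

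The receptor was among the more abundant transcripts of these cells. Per kilobase of exon, Csf2rb stood at 148 ± 12.7 CPM and Csf2ra at 130 ± 20.3 CPM in wild-type libraries (SD, n = 3), levels that did not differ beyond their spread. Averaged over all 6 libraries, both lay above 97% of the tested genes on this scale, at percentiles 97.8 and 97.7. Csf2rb2, whose product is a beta chain that in mice serves interleukin-3, stood at 66.3 ± 5.37 CPM per kilobase (SD, n = 3).

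Csf2ra (ENSMUSG00000059326.6, chr19:61223957-61228429, minus strand) had 398, 307 and 416 CPM in wild-type replicates 1 to 3, against 316, 477 and 465 CPM in the Ahrr-deficient ones. The 2 lowest of these 6 values came from wild-type replicate 2 and Ahrr-deficient replicate 1, and the groups overlapped. The log2 fold change was 0.10 (95% interval -0.25 to 0.45) with an edgeR adjusted p of 0.681.

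Csf2rb (ENSMUSG00000071713.4, chr15:78325752-78353847, plus strand) had 1128, 1136 and 972 CPM in wild-type replicates 1 to 3, against 1010, 1052 and 967 CPM in the Ahrr-deficient ones. The Ahrr-deficient values lay within or just under the wild-type range, and the log2 fold change was -0.18 (95% interval -0.46 to 0.11, edgeR adjusted p 0.349). Csf2rb2 (ENSMUSG00000071714.5, chr15:78282507-78305721, minus strand), the neighbouring gene, had 314, 340 and 289 CPM in wild-type replicates 1 to 3, against 292, 311 and 249 CPM in the Ahrr-deficient ones. Its log2 fold change was -0.23 (95% interval -0.52 to 0.07, edgeR adjusted p 0.243). Neither beta chain gene passed the threshold.

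These neighbours are close copies. Of all 75-base stretches in the annotated transcripts, the read length used here, 10.6% of those of Csf2rb2 and 7.15% of those of Csf2rb occur in both genes, so their counts are uncertain to the extent that shared reads were assigned to either. Reads of Csf2rb2 per read of Csf2rb were 0.279, 0.299 and 0.297 in wild-type and 0.290, 0.296 and 0.258 in Ahrr-deficient replicates 1, 2 and 3. This ratio overlapped between the groups. Reads of Csf2ra per read of Csf2rb varied more, from 0.270 to 0.428 in wild-type and from 0.313 to 0.481 in Ahrr-deficient libraries, and overlapped as well.

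Jak2 (ENSMUSG00000024789.12, chr19:29251828-29313080, plus strand) encodes the tyrosine kinase bound to the beta chain. It had 43.5, 47.8 and 48.6 CPM in wild-type replicates 1 to 3, against 54.3, 44.2 and 44.7 CPM in the Ahrr-deficient ones. The highest value was that of the shallowest library, which held 193 counts of the gene. In CPM, which leave out the scaling factors of the fit, the other Ahrr-deficient values lay inside the wild-type range. The log2 fold change was -0.06 (95% interval -0.33 to 0.21, edgeR adjusted p 0.766).

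Stat5a and Stat5b encode closely related transcription factors and lie side by side on chromosome 11 (ENSMUSG00000004043.14, chr11:100859351-100885169, plus strand, and ENSMUSG00000020919.11, chr11:100780731-100850724, minus strand). Stat5b had 109, 102 and 110 CPM in wild-type replicates 1 to 3, against 110, 94.3 and 108 CPM in the Ahrr-deficient ones. The log2 fold change was -0.11 (95% interval -0.32 to 0.09, edgeR adjusted p 0.385). Stat5a had 26.9, 23.0 and 30.7 CPM in wild-type replicates 1 to 3, against 24.2, 28.4 and 32.4 CPM in the Ahrr-deficient ones, with a log2 fold change of 0.02 (95% interval -0.25 to 0.30, edgeR adjusted p 0.907).

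Per kilobase of exon, the level of Stat5a was 0.195 ± 0.021 times that of Stat5b in wild-type and 0.212 ± 0.036 times in Ahrr-deficient libraries (SD, n = 3). Stat5b was thus the more abundant of the pair in each genotype, and the ratio overlapped between them. Of the 75-base stretches of each gene, 5.12% of those of Stat5a and 6.99% of those of Stat5b occur in both. Exons of Stat5a also overlap by 72 bases those of Stat3 on the opposite strand, which had a mean of 214.5 CPM over the 6 libraries against 27.6 CPM for Stat5a, so part of the Stat5a counts is uncertain where strand was not used.

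**Figure D2:**
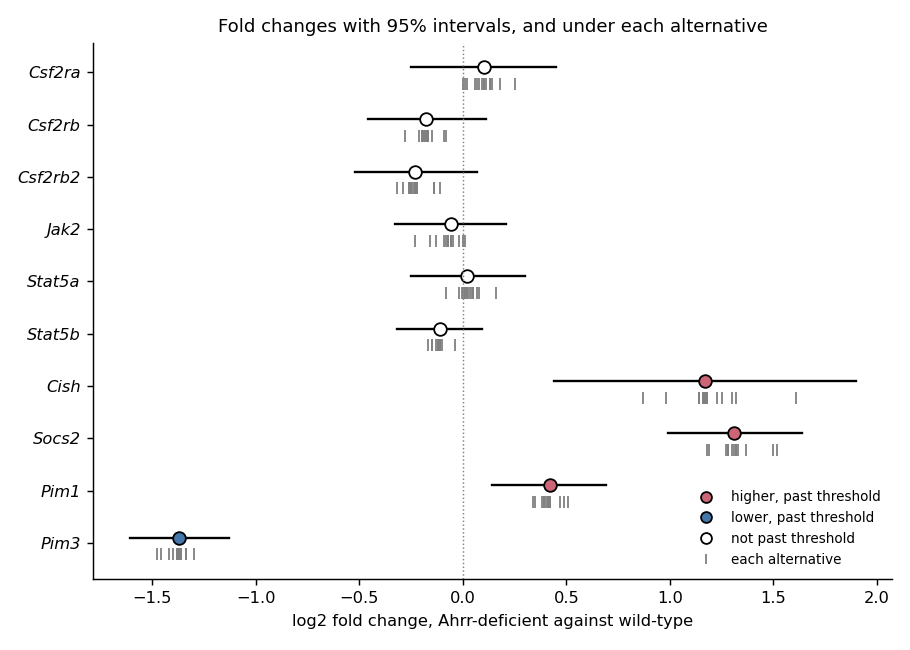
Log2 fold change of each of the 10 genes in Ahrr-deficient against wild-type libraries (horizontal axis), as points with 95% intervals, with grey ticks for the value under each of the 15 alternatives tried. The intervals of the 6 receptor, kinase and STAT5 genes include 0, while those of Cish (0.44 to 1.90), Socs2 (0.99 to 1.64), Pim1 (0.14 to 0.69) and Pim3 (-1.61 to -1.13) do not.

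Cish (ENSMUSG00000032578.7, chr9:107296026-107302784, plus strand) encodes CIS, an inhibitor of the SOCS family that docks on activated cytokine receptors. Both STAT5 motif matches printed above lie at its start in RefSeq, which is inside the gene span given here. It had 75.8, 46.0 and 27.3 CPM in wild-type replicates 1 to 3, against 83.5, 126 and 150 CPM in the Ahrr-deficient ones. The wild-type values spread 2.77-fold, and the lowest Ahrr-deficient value exceeded the highest wild-type value by only 7.77 CPM. Means were 49.7 ± 24.4 CPM in wild-type and 120 ± 33.6 CPM in Ahrr-deficient libraries (SD, n = 3). Cish rose 2.25-fold, or by 1.17 on the log2 scale (SE 0.32, edgeR adjusted p 0.0348). The call was lost without wild-type replicate 2 (edgeR adjusted p 0.104), wild-type replicate 3 (0.0609), Ahrr-deficient replicate 2 (0.0948) or Ahrr-deficient replicate 3 (0.124). It was also lost with DESeq2 (adjusted p 0.0556) and with the replicate number as a block (edgeR adjusted p 0.0592). Exons of Cish overlap those of Gm17040 and Gm17041 on the opposite strand, neither of which is in the annotated table, and reads of such pairs cannot be told apart where strand was not used.

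Socs2 (ENSMUSG00000020027.18, chr10:95385362-95417180, minus strand) encodes another inhibitor of the SOCS family, best known for restraining growth hormone signalling through STAT5B. It had 19.4, 11.3 and 15.97 CPM in wild-type replicates 1 to 3, against 41.6, 43.0 and 40.5 CPM in the Ahrr-deficient ones. The Ahrr-deficient libraries lay close together and each exceeded the highest wild-type library more than 2-fold. Mean levels of Socs2 were 15.5 ± 4.07 CPM in wild-type and 41.7 ± 1.26 CPM in Ahrr-deficient libraries (SD, n = 3). It rose 2.48-fold, or by 1.31 on the log2 scale (SE 0.14, edgeR adjusted p 0.00158). It kept its call in all 15 alternatives, with log2 fold changes from 1.18 to 1.52. It was also the least abundant of the 10 genes per length in wild-type libraries, at 1.63 ± 0.427 CPM per kilobase (SD, n = 3), and its smallest count was 71.

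Pim1 (ENSMUSG00000024014.7, chr17:29490753-29496112, plus strand) encodes a serine/threonine kinase that promotes growth and survival downstream of cytokine receptors. Its level was 413, 319 and 336 CPM in wild-type replicates 1 to 3, against 435, 520.5 and 542 CPM in the Ahrr-deficient ones. As for Cish, the highest wild-type value was that of replicate 1 and the lowest Ahrr-deficient value that of replicate 1, and these lay close together. Means were 356 ± 50.1 CPM in wild-type and 499 ± 56.4 CPM in Ahrr-deficient libraries (SD, n = 3). Pim1 rose 1.33-fold, or by 0.42 on the log2 scale (SE 0.12, edgeR adjusted p 0.0438). The call was kept without Ahrr-deficient replicate 1 (edgeR adjusted p 0.0114) and lost without any of the 5 other libraries: 0.0620, 0.125 and 0.150 without wild-type replicates 1, 2 and 3, and 0.118 and 0.138 without Ahrr-deficient replicates 2 and 3. It was also lost with upper-quartile scaling (edgeR adjusted p 0.0576), with all libraries thinned to the smallest total (0.0560) and with the replicate number as a block (0.0880). Exons of Pim1 and of Gm26885, on the opposite strand, overlap by 488 bases, and that gene was at no more than 1.26 CPM in any library.

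Pim3 (ENSMUSG00000035828.10, chr15:88862186-88865726, plus strand) encodes a kinase of the same family with overlapping substrates. It had 223, 187 and 237 CPM in wild-type replicates 1 to 3, against 74.8, 87.1 and 99.3 CPM in the Ahrr-deficient ones. The groups were far apart, with the lowest wild-type value 87.5 CPM above the highest Ahrr-deficient value. Means were 216 ± 25.97 CPM in wild-type and 87.1 ± 12.3 CPM in Ahrr-deficient libraries (SD, n = 3). Pim3 was 2.59-fold lower, a log2 difference of -1.37 (SE 0.10, edgeR adjusted p 6.59e-04). It passed the threshold in all 15 alternatives.

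The PIM kinase genes therefore moved apart. Per kilobase of exon, the level of Pim3 was 0.846 ± 0.119 times that of Pim1 in wild-type and 0.241 ± 0.011 times in Ahrr-deficient libraries (SD, n = 3). The ratio of their reads was 0.540, 0.586 and 0.707 in wild-type and 0.172, 0.167 and 0.183 in Ahrr-deficient replicates 1, 2 and 3, so the genotypes were separate and the Ahrr-deficient libraries nearly equal. Pim2, the remaining kinase of the family, stood at 2.27 and 2.67 CPM in the means of wild-type and Ahrr-deficient libraries, with a log2 fold change of 0.04 and an edgeR adjusted p of 0.970. The inhibitor genes Cish and Socs2 both rose, and their ratio overlapped between the genotypes, at 1.71 to 4.08 reads of Cish per read of Socs2 in wild-type and 2.01 to 3.70 in Ahrr-deficient libraries.

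**Figure D3:**
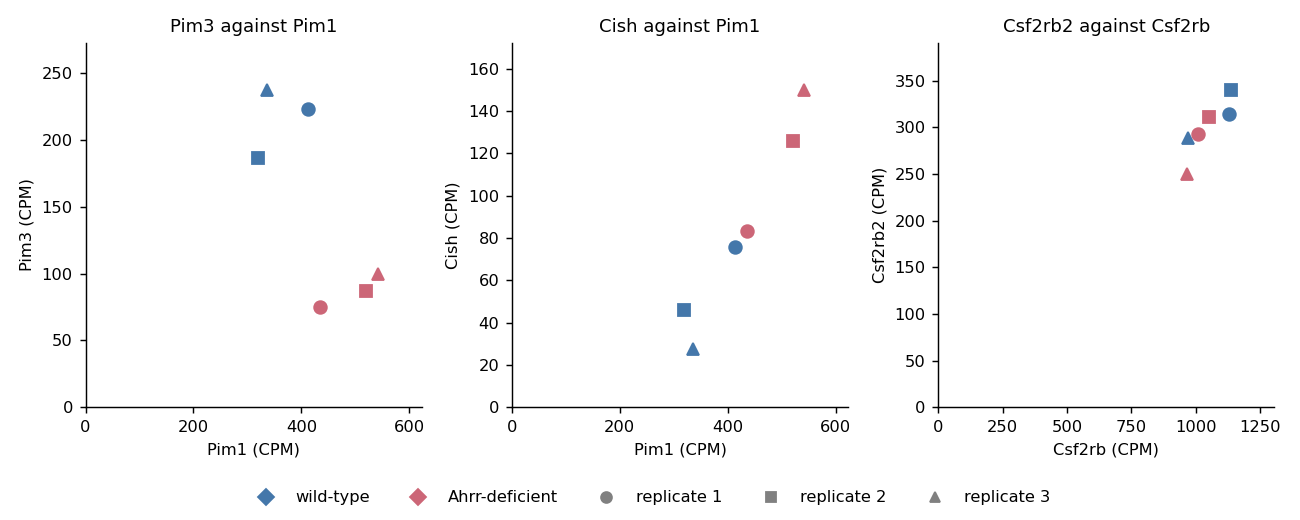
Pairs of the 10 genes plotted against each other in CPM, 1 point per library, with both axes from 0. Wild-type and Ahrr-deficient libraries form separate groups for Pim3 against Pim1, Cish and Pim1 are jointly higher in the Ahrr-deficient libraries, and Csf2rb2 against Csf2rb shows the genotypes mixed, at 0.258 to 0.299 reads of Csf2rb2 per read of Csf2rb.

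The genes whose log2 CPM over the 6 libraries ran most like each changed gene were taken from 10033 others with a mean of at least 50 counts. Unlike the CPM elsewhere, these log2 values include the TMM factors and a prior count of 2. For Cish they were AC114585.2 (Pearson r 0.983) and Rffl (0.973), and for Pim1 they were Zfp703 (0.996) and again Rffl (0.988). For Socs2 they were Ptpn11 (0.996) and Dtl (0.995), and for Pim3 they were Lrrc45 (0.999) and Fam213b (0.996). Of these genes, AC114585.2 had 28, 3 and 0 counts in wild-type and 6, 465 and 90 counts in Ahrr-deficient replicates 1 to 3. It met the minimum mean mainly through Ahrr-deficient replicate 2, and its lowest log2 values rest on the prior count. All 6 libraries share the genotype split and the depth differences, so these correlations describe likeness only.

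Further genes of the pathway were read from 7 lists of 99 genes in all, of which 79 were tested and 25 passed the threshold, 15 higher and 10 lower, or 31.6% beside the 19.6% of all tested genes. The lists were chosen with earlier results of these data known. The share called in any of them is therefore a description and no test of enrichment. Among ligands, 3 of 10 were in the annotated table, and Csf2, the gene of GM-CSF itself, was not. Il15, whose product signals through STAT5 in lymphocytes, was the 1 of 2 tested ligands that changed. Its log2 difference was -1.35 (edgeR adjusted p 0.00643), falling from 11.7, 13.7 and 15.1 CPM in wild-type to 7.03, 4.20 and 6.88 CPM in Ahrr-deficient libraries.

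Of 9 tested receptors that can signal through STAT5, 3 fell, 0 rose and 6 did not pass, with a median log2 fold change of -0.36, where 9.95% of all tested genes were lower. Csf3r, the receptor of granulocyte colony-stimulating factor, had 7.79, 6.98 and 8.13 CPM in wild-type replicates 1 to 3, against 2.81, 1.03 and 1.11 CPM in the Ahrr-deficient ones (log2 fold change -2.69, edgeR adjusted p 0.00151). Epor, the erythropoietin receptor, fell from 17.6 ± 4.48 to 3.92 ± 1.13 CPM (SD, n = 3, edgeR adjusted p 0.00113, log2 difference -2.44). Csf1r, the receptor of macrophage colony-stimulating factor, fell 1.57-fold from 957 to 640 CPM (edgeR adjusted p 0.0304), a call that was kept without Ahrr-deficient replicate 1 and lost without any other library (edgeR adjusted p up to 0.104). The summed macrophage marker level overlapped between the groups, but most of it came from Lyz2 (means of 19960 CPM in wild-type and 15190 CPM in Ahrr-deficient libraries, edgeR adjusted p 0.0926). Of the 11 tested markers, which include Csf1r, 3 were called, where 19.6% of all tested genes were called. Beside Csf1r, Cd14 was lower (log2 fold change -1.66, edgeR adjusted p 0.00329) and Mrc1 higher (0.59, edgeR adjusted p 0.00766). The part of the marker levels in the fall of Csf1r was not tested. Il3ra, the alpha chain that pairs with the beta chains for interleukin-3, stood at 49.3 ± 9.65 and 43.9 ± 8.59 CPM in wild-type and Ahrr-deficient libraries (SD, n = 3, edgeR adjusted p 0.325).

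Among 7 tested other JAK and STAT genes, 1 passed, a share called of 14.3% against 19.6% of all tested genes. This was Jak3, a kinase bound to the common gamma chain. It had 82.7, 76.5 and 85.8 CPM in wild-type replicates 1 to 3, against 52.6, 52.2 and 63.3 CPM in the Ahrr-deficient ones, a log2 difference of -0.62 (edgeR adjusted p 0.00486). Of 17 tested inhibitors and phosphatases, 4 rose, 0 fell and 13 did not pass, a share called of 23.5% that is near the 19.6% of all tested genes. Ptpn2 and Ptpn1 encode phosphatases that act on JAK kinases, and their log2 fold changes were 0.83 (edgeR adjusted p 0.00637) and 0.76 (edgeR adjusted p 0.0151). Ptpn2 rose from 24.97 to 46.1 CPM and Ptpn1 from 293 to 517 CPM. Socs4, of the same family as Cish and Socs2, rose from 47.6 to 68.3 CPM (edgeR adjusted p 0.0140), and Ptpn11, which encodes the phosphatase SHP-2, from 97.3 to 122 CPM (edgeR adjusted p 0.0439). Ptpn2 kept its call whichever library was left out. Socs4 lost it without wild-type replicate 1, wild-type replicate 2 or Ahrr-deficient replicate 2 (edgeR adjusted p up to 0.0894), and Ptpn1 without these or Ahrr-deficient replicate 3 (up to 0.0585). With single libraries left out, Ptpn11 kept it only without Ahrr-deficient replicate 1 and lost it without any other (up to 0.174). Ptpn11 also lost its call with DESeq2 (adjusted p 0.0954), and in edgeR with upper-quartile scaling (0.0677), all genes kept (0.120), thinning (0.0999), 2 libraries against 2 (0.0745) or the replicate number as a block (0.0994). Socs3 stood at 34.7 ± 18.6 and 35.6 ± 3.80 CPM in wild-type and Ahrr-deficient libraries (SD, n = 3), with an edgeR adjusted p of 0.852.

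Of 18 tested adaptors and genes of the other branches of the receptor, 16 did not pass, a share called of 11.1% against the background of 19.6%. Grb2, an adaptor that links receptors to RAS, fell from 297 to 249 CPM (edgeR adjusted p 0.0256), and Nras, a RAS gene, rose from 122 to 151 CPM (edgeR adjusted p 0.0441). With single libraries left out, Grb2 kept its call without wild-type replicate 3 or Ahrr-deficient replicate 1 and lost it otherwise (edgeR adjusted p up to 0.117), and Nras kept it only without Ahrr-deficient replicate 1 (otherwise up to 0.202). The call of Nras was also lost with DESeq2 (adjusted p 0.0906), and in edgeR with upper-quartile scaling (0.0689), all genes kept (0.145), thinning (0.198) or the replicate number as a block (0.113).

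The other genes known as STAT5 targets moved in both directions, in a list not sorted by whether STAT5 raises or lowers a gene. Of 15 tested, 4 rose, 3 fell and 8 did not pass, with a median log2 fold change of 0.06 and a share called of 46.7%, against 19.6% of all tested genes. Myc, a driver of growth, rose by 2.37 on the log2 scale (edgeR adjusted p 0.00184), from 26.8, 17.1 and 19.1 CPM in wild-type to 72.6, 111 and 165 CPM in Ahrr-deficient libraries. Id1, an inhibitor of basic helix-loop-helix factors, rose by 1.92 on the log2 scale (edgeR adjusted p 0.00353) and Ccnd2, a D-type cyclin, by 1.38 (edgeR adjusted p 0.00228). Bcl6, a repressor that STAT5 is known to lower in lymphocytes, had 13.6, 25.1 and 16.8 CPM in wild-type replicates 1 to 3, against 9.56, 6.94 and 9.51 CPM in the Ahrr-deficient ones. Its log2 difference was -1.21 (edgeR adjusted p 0.0183), and the call was lost without Ahrr-deficient replicate 2 (edgeR adjusted p 0.0959).

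Of the genes known to depend on GM-CSF in macrophages, 58.3% were called, against 19.6% of all tested genes. This list too was chosen with earlier results of these data known, so its share is a description only. Of 12 tested, 6 rose, 1 fell and 5 did not pass, with a median log2 fold change of 0.51. Fabp5 was the gene that fell (log2 fold change -0.67, edgeR adjusted p 0.00452). Those that did not pass were Fabp4 (log2 fold change -0.53), Chil3 (-0.13), Spi1 (-0.06), Siglecf (0.39) and Bhlhe41 (0.43). Car4, a carbonic anhydrase of alveolar macrophages, had 128, 45.4 and 61.7 CPM in wild-type replicates 1 to 3, against 260, 1086 and 780 CPM in the Ahrr-deficient ones (log2 fold change 3.10, edgeR adjusted p 0.00622). Itgax, the integrin chain CD11c, rose 3.25-fold (edgeR adjusted p 6.96e-04), Bhlhe40, a transcription factor, 2.66-fold (edgeR adjusted p 0.00158) and Irf4, an interferon regulatory factor, 2.63-fold (edgeR adjusted p 8.97e-04). Clec9a, the dendritic cell marker above, rose from 54.5 to 81.2 CPM beside them (edgeR adjusted p 0.0256), and Zbtb46, another marker of those cells, stood at 5.48 and 4.43 CPM in wild-type and Ahrr-deficient libraries. The part of such cells in the levels of Itgax and Irf4 was not tested.

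**Figure D4:**
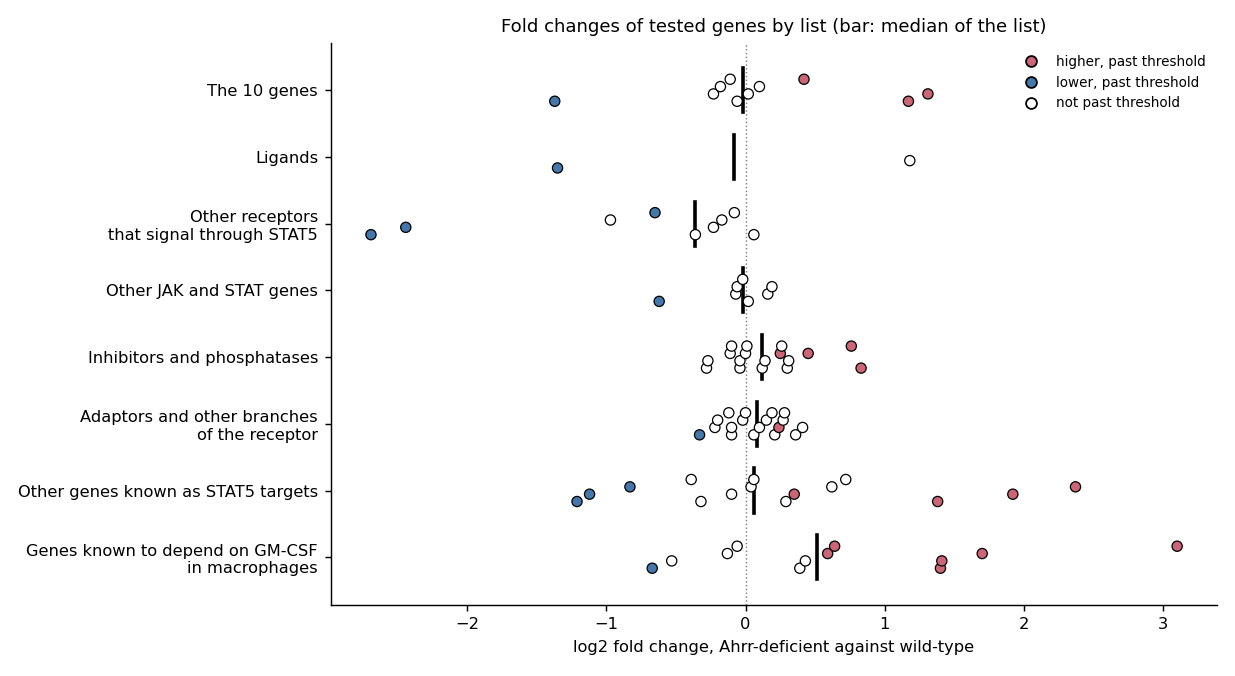
Log2 fold change of each tested gene (horizontal axis) in the 10 genes and in 7 lists of related genes, with filled points for genes past the threshold and a bar at the median of each list. The list medians lie between -0.36 for other receptors and 0.51 for genes known to depend on GM-CSF, and the STAT5 target list has called genes on both sides of 0.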

How the data were processed

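Polyadenylated RNA of 6 libraries was read as single reads of 75 bases, from 100 ng of RNA with a TruSeq kit, per the labels' protocols. The submitters' processing notes name mm10, CASAVA 1.8.2, fastp 0.20.0, STAR 2.7.10b, SAMtools 1.16.1, R 4.3.1 and DESeq2 1.40.2; the counting program, its use of strand and the annotation release are not given in the sources used here. The authors deposited raw counts per feature for 53465 features without identifiers. A second deposited table gives, for 16111 genes with identifiers and symbols, a normalized signal that the authors made. Multiplied by a median-of-ratios factor per library, 100% of these values were whole reads within 0.01, and they held the same count vectors as the 16111 raw features whose counts summed to 10 or more. The raw counts were joined to the identifiers in this way, and features without an identifier (0.0232% to 0.0511% of a library's counts) stayed in the totals.

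Genes were tested on raw counts with edgeR 4.0.16 (quasi-likelihood, two-sided, R 4.3.3), using TMM factors (0.904 to 1.04), filterByExpr and no term but genotype, adjusted by Benjamini-Hochberg over 11408 genes with a threshold of 0.05. The 95% intervals use the t quantile at the total degrees of freedom of that test. All 10 genes passed the filter. The fit was checked on simulated counts with the same spread for all genes. That check does not cover genes of wider spread, such as Cish, or changes as small as that of Pim1. CPM are counts divided by the library total; a count of 3, taken as the floor, equals 0.072 to 0.844 CPM, which covers counting error only. Libraries are separate mice per the labels. Coordinates and exon lengths come from GENCODE mouse release M21 (GRCm38, the assembly of mm10), in which 16094 of the 16111 identifiers were found. An exon length joins the exons of all annotated transcripts of a gene, so it can exceed the length of any 1 transcript. Levels per kilobase depend on this choice.

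The 10 genes, the lists and the tests were chosen with earlier results of these data known. Named genes are the 10, Ahrr, the up to 4 called genes of each list with the largest change, and the 2 most correlated genes for each called gene among the 10; other names were chosen after their values were seen. The alternatives were upper-quartile scaling, RLE scaling, all genes kept, a minimum mean of 50 counts, limma-voom (limma 3.58.1), DESeq2 1.42.0, the replicate number as a block, thinning to the smallest total, each library left out, and, added after seeing the data, 2 libraries against 2. Python 3.11.15 with pandas 2.3.3 and matplotlib 3.10.9 was used for summaries and figures.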

Additional observations from a re-analysis of the deposited data

How the results depend on the processing

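Pim3 and Socs2 kept direction and call in all 15 alternatives, with log2 fold changes from -1.48 to -1.30 and from 1.18 to 1.52. Cish and Pim1 kept their direction, with ranges from 0.87 to 1.61 and from 0.34 to 0.51 and edgeR, DESeq2 or limma adjusted p up to 0.124 and 0.150, and passed in 9 and 7 of the 15. With all genes kept, Cish passed with an SE of 0.11, against 0.32 in the main fit. Its log2 fold changes there were nearly equal, at 1.18 and 1.17, so that pass carries little weight. The 6 receptor, kinase and STAT5 genes passed in none of them, with adjusted p from 0.0927 upward. Signs turned for Csf2ra, which ranged from -3.9e-05 (without Ahrr-deficient replicate 2) to 0.25 with a library left out, for Jak2, from -0.16 to 0.01 (0.01 without wild-type replicate 2 and 0.0016 without Ahrr-deficient replicate 2), and for Stat5a, from -0.08 (without Ahrr-deficient replicate 3) to 0.08, with -0.02 without wild-type replicate 2 and -0.0066 with upper-quartile scaling.

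Leaving out each library gave 2 to 4 of the 10 genes, 694 to 3857 of all genes and 18 to 38 of the list genes past the threshold, against 4, 2232 and 25. Thinning to the smallest total gave 1145 genes in all; it lowers the reads of 5 libraries. With the replicate block, which pairs libraries by the numbers in the titles, 1390 genes, 22 list genes and 2 of the 10 genes passed. The 2 were Pim3 and Socs2, while Cish (edgeR adjusted p 0.0592) and Pim1 (0.0880) did not pass, nor did Ptpn11, Nras and Grb2. Deviations of same-numbered libraries had correlations of -0.169, 0.071 and 0.129, and not every library correlated best with its own number. With 3 libraries per group, such values cannot decide whether same-numbered libraries were prepared together. With 2 libraries against 2, chosen after seeing the data, 3192 genes passed. The cause of these changes was not tested. Depth limits genes of few counts most in Ahrr-deficient replicate 1, where Stat5a had 86 counts.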

Other observations

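Several called genes of the lists, other than Fabp5, were left unnamed above by the rule. They and Fabp5 were chosen here after their values were seen. Osm, which encodes the cytokine oncostatin M and is known as a STAT5 target, had 123, 96.3 and 63.8 CPM in wild-type replicates 1 to 3, against 43.9, 49.0 and 44.7 CPM in the Ahrr-deficient ones, a log2 difference of -1.12 (edgeR adjusted p 0.00878). Its fall stands beside the rise of Cish and Socs2. Cdkn1a, a cyclin-dependent kinase inhibitor, had 784, 734 and 651 CPM in wild-type replicates 1 to 3, against 432, 417 and 440 CPM in the Ahrr-deficient ones, a log2 difference of -0.83 (edgeR adjusted p 0.00374). Id2, of the same STAT5 target list, rose by 0.35 on the log2 scale (edgeR adjusted p 0.0302). Pparg, a nuclear receptor that GM-CSF is known to raise in alveolar macrophages, rose from 79.98 ± 2.38 to 131 ± 20.9 CPM (SD, n = 3, edgeR adjusted p 0.00736). Fabp5, a fatty acid-binding protein gene of the same list, fell from 1039 ± 21.7 to 690 ± 5.43 CPM (SD, n = 3, edgeR adjusted p 0.00452). Bcl2l1, which encodes the survival protein BCL-XL, had 38.2 CPM in Ahrr-deficient replicate 1 against 77.8 and 57.9 CPM in replicates 2 and 3, and did not pass (edgeR adjusted p 0.0594).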
